A study of Marchantia polymorpha and Lactuca sativa with 27 samples.

Results

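Lettuce shoots kept without nitrate were compared with shoots kept in full medium, on the 6 libraries that the labels assign to these media, out of 9 lettuce libraries and 27 libraries in the whole series. The plants were Lactuca sativa, genotype Red fire, a red-leaved lettuce. Seedlings raised on half-strength MS medium under continuous light were moved at 4 days of age to liquid Yamagami medium for 7 days. The no-nitrate medium held 0 mM nitrate and the full medium held 2 mM phosphate and 10 mM nitrate. A further group without phosphate (0 mM) is used below where it shows how the nitrate response differs. It was also part of the fit, so all 9 lettuce libraries shared 1 estimate of the spread. Each group held 3 libraries of poly(A)-selected RNA from shoots. The labels do not say whether another nitrogen source replaced nitrate. They also do not say whether a library came from 1 plant or several, or whether replicates were separate cultures. The p-values therefore measure only the spread within groups of these 9 libraries, which may be technical.

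Nitrate is the main form of nitrogen that many plants take up. Transporters carry it into the cell, nitrate reductase and nitrite reductase reduce it to ammonium, and glutamine synthetase builds the ammonium into amino acids. Nitrate is also a signal, and genes for its own uptake and reduction are among those it is known to induce. In leaves a large share of nitrogen sits in photosynthetic proteins, from which it can be withdrawn when supply is short. The deposited lettuce table does not pair its identifiers with gene names, and the name table used here covers the liverwort of the same series. The results below are therefore given by level, size and pattern, with identifiers for the 2 largest rises and the 2 largest falls under limits given below. No function is attached to any of them, and the labelled tissue could not be checked against leaf or root markers.

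Depth was 18976680, 20580911 and 19615358 counts in the libraries without nitrate, and 19473305, 20073147 and 19031088 counts in full-medium columns 2, 3 and 4. One count was worth 0.0483 to 0.0513 CPM without nitrate and 0.0501 to 0.0544 CPM in full medium, where CPM means counts scaled to the library total with TMM factors applied. Full-medium column 4 stood apart in several measures before any comparison, and no-nitrate library 3 in a set of identifiers described below. Full-medium column 4 differed from columns 2 and 3 by a chi-square of 23.0 and 27.9 per degree of freedom, against 5.60 to 10.2 among the no-nitrate libraries and 5.06 between columns 2 and 3. On the first principal component of log2 CPM, which held 58.3% of the variance over the 9 lettuce libraries, the no-nitrate libraries lay at -3.56, -15.2 and -23.3, and full-medium columns 2, 3 and 4 at -59.2, -65.2 and -36.4. Column 4 was thus the full-medium library nearest to the no-nitrate group on this component. The no-phosphate libraries lay further along it, at 70.7, 66.6 and 65.6, so column 4 was also the nearest to them. On the second component (13.8%) the no-nitrate libraries lay at 32.8 to 37.4, apart from all others. Full-medium columns 2, 3 and 4 lay there at -21.3, -24.4 and -24.5, so column 4 stood with its partners. On the third component (9.02%) column 4 lay at 49.0, with every other library between -20.7 and 13.8.

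**Figure D1:**
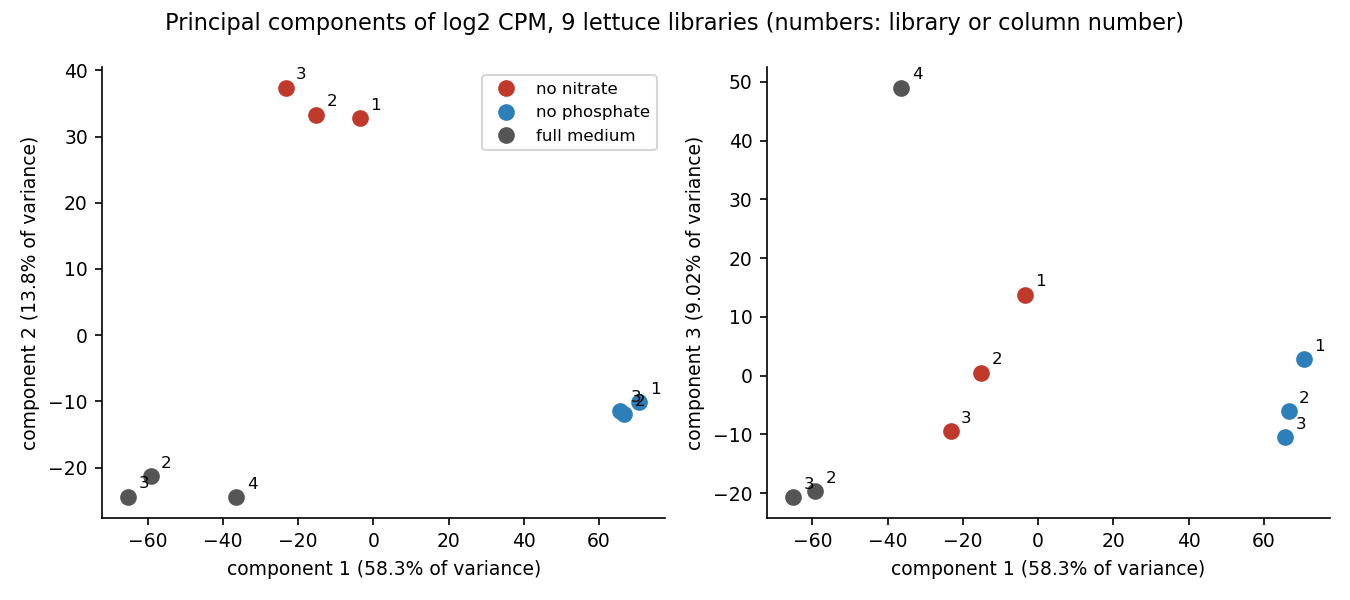
Principal components of log2 CPM over 9 lettuce libraries: component 1 against component 2 (left) and against component 3 (right), in arbitrary units, 1 point per library, coloured by medium and numbered as in the table's columns. The no-nitrate libraries lie at 32.8 to 37.4 on component 2, above all others, and full-medium column 4 lies alone at 49.0 on component 3.

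No-nitrate library 3 stood apart in a narrower way. Identifiers of the table that begin with FKU89_mg or LasaC, 196 rows whose genome location the files do not give, summed to 220, 252 and 2865 counts in no-nitrate libraries 1, 2 and 3, against 370, 488 and 156 counts in full-medium columns 2, 3 and 4. In CPM of the plain library total these were 11.6, 12.2 and 146 without nitrate, and 19.0, 24.3 and 8.20 in full medium. Library 3 was therefore high alone in its group, and none of the 19 such identifiers that passed the low-count filter was called. All 3566 called genes carried other identifiers.

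Without nitrate, 1612 genes rose and 1954 fell relative to full medium, out of 23366 tested (edgeR quasi-likelihood test, Benjamini-Hochberg adjusted p under 0.05). The called genes were 15.3% of all genes tested, 6.9% higher and 8.36% lower. Rises were larger than falls on the log2 scale, with a median of 0.72 among the genes that rose and -0.45 among those that fell, while the median over all tested genes was -0.026. At least 2-fold changes numbered 524 rises and 124 falls, which are 2.24% and 0.531% of the genes tested. At least 4-fold changes numbered 101 rises and 32 falls, and at least 8-fold changes 17 of each. Most falls were small: 1335 of the 1954 were under 1.5-fold, against 616 of the 1612 rises. The 3 libraries of each group did not overlap for 7618 genes, or 32.6% of those tested, 13.9% higher without nitrate and 18.7% lower. In bulk shoots, fewer cells of a type and less RNA per cell cannot be told apart.

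**Figure D2:**
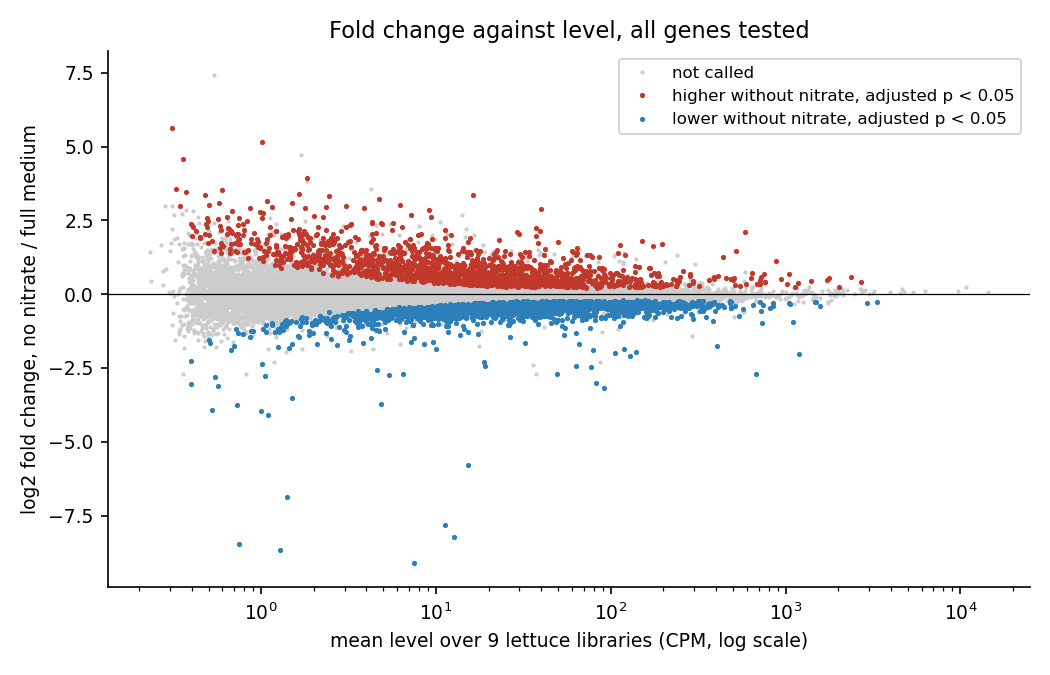
Log2 fold change of no nitrate over full medium (vertical axis) against the mean level in CPM over 9 lettuce libraries (horizontal axis, log scale), 1 point per gene tested, red for genes called higher and blue for genes called lower without nitrate. The 1954 falls form a dense band close to 0 with a few genes far below it, down to -9.11, and the 1612 rises spread more widely at low levels.

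These counts depended on single libraries. Without full-medium column 4 the calls were 4905 genes, 2723 higher and 2182 lower, with 805 rises and 173 falls of at least 2-fold. Without no-nitrate library 3 they were 2659, 1232 higher and 1427 lower. Over 1.5 times fewer genes were called without no-nitrate library 1 (1984), no-nitrate library 2 (2176) or full-medium column 3 (1898). With no-nitrate library 3 and column 4 both left out, 4866 genes were called, 2424 higher and 2442 lower, with 828 rises and 224 falls of at least 2-fold. No gene called with all libraries had the opposite direction in any of these fits. The counts also depended on the no-phosphate libraries, since a fit without them called 2544 genes, 1335 higher and 1209 lower.

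Each library was also read against the genes called without it, by asking whether it lay on its own group's side of the midpoint between the 2 media on the log2 scale. The left-out no-nitrate libraries did so for 90.6%, 95.1% and 87.1% of such genes, in the order 1, 2 and 3. Full-medium columns 2 and 3 did so for 82.3% and 94.9%. Column 4 did so for 59.1% of the 4905 genes called without it, that is 49.8% of those called higher and 70.6% of those called lower without nitrate. Column 4 was therefore on the no-nitrate side for about as many of the raised genes as on its own.

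**Figure D3:**
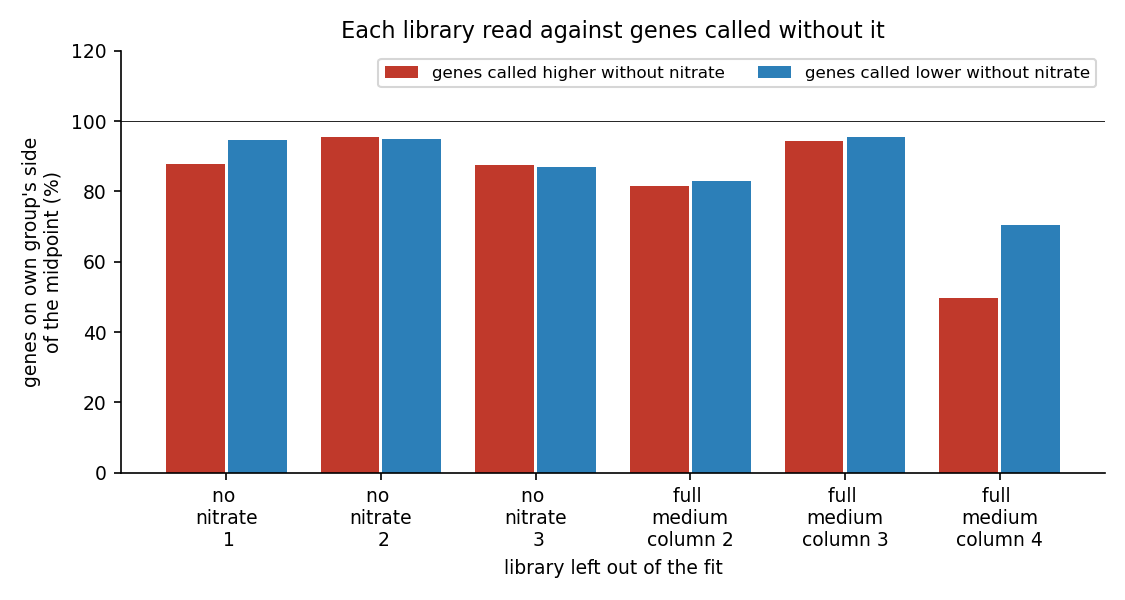
Share of genes (vertical axis, %) for which a library left out of the fit lay on its own group's side of the midpoint between no nitrate and full medium, for each of the 6 libraries, red for genes called higher and blue for genes called lower without nitrate. Bars stand between 81.6% and 95.6% for 5 libraries, and at 49.8% and 70.6% for full-medium column 4.

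The called genes took different shares of each library. The 1612 genes that rose held 8.20%, 8.40% and 7.85% of all counts without nitrate, against 5.57%, 5.09% and 5.57% in full medium. The 1954 genes that fell held 12.1%, 12.6% and 12.7% of counts without nitrate, against 16.2%, 17.6% and 16.3% in full medium. The 524 genes that rose at least 2-fold held only 0.767% to 0.913% of counts without nitrate and 0.271% to 0.369% in full medium, so the large rises lay among genes with few counts. Since these genes were chosen by the same contrast, their shares are a description. In the concentration of counts, column 4 lay near the libraries of both starvations and not with its partners. The top 100 genes of each library held 21.6%, 21.3% and 21.5% of its counts without nitrate. They held 21.9%, 22.4% and 21.9% without phosphate, and 19.9%, 19.3% and 21.7% in full-medium columns 2, 3 and 4.

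The share of genes called grew with the depth at which a gene was counted, up to 1000 CPM. Among genes with a mean under 1 CPM over the 9 lettuce libraries, 4.67% of 2015 were called, 76 higher and 18 lower. From 1 to 10 CPM it was 11.6% of 8046 (576 higher, 359 lower), from 10 to 100 CPM 18.1% of 11503 (835 higher, 1248 lower), from 100 to 1000 CPM 25.5% of 1708 (115 higher, 320 lower) and above 1000 CPM 20.2% of 94 (10 higher, 9 lower). The median size of a called change was 2.00 on the log2 scale in the lowest of these classes and 0.38 in the highest. Rises outnumbered falls below 10 CPM, and falls outnumbered rises from 10 to 1000 CPM. Because CPM is not corrected for gene length, these classes order genes by counting depth and not by transcript number.

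LOC122195143 had the largest fitted rise. It was measured at 2.91, 1.64 and 1.74 CPM without nitrate, against 0.155, 0 and 0 CPM in full-medium columns 2, 3 and 4. The no-nitrate libraries together held 125 counts, against 3 counts in full medium, all of them in column 2. The 4 identifiers given here were all taken under these limits, so larger fitted changes under 1 CPM are left out. The gap between the groups is part of the choice. The ratio was 40.2, with an exact 95% counting interval of 13.4 to 198, which covers counting error only. In edgeR's quasi-likelihood test the adjusted p was 0.0371 (log2 5.18, SE 1.35). This call was lost when any 1 of the 6 libraries was left out, with adjusted p of 0.0691 to 0.137. The fitted log2 fold change was 4.65 to 5.32 in 5 of these fits and 8.41 without column 2, where full medium held no count. Without phosphate its levels were 0.138, 2.25 and 0.220 CPM, so 1 of these libraries lay among the no-nitrate values and the other two close to full medium (no nitrate against no phosphate, log2 1.33, adjusted p = 0.294).

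LOC111884577 showed the next largest rise under the same limits, at 2.19, 1.30 and 0.718 CPM without nitrate, against 0, 0.150 and 0.109 CPM in full medium. The no-nitrate values themselves spread over the range 0.718 to 2.19 CPM, with library 3 the lowest. The log2 fold change was 3.93 (SE 0.648, edgeR adjusted p = 0.00176), and it was called with any 1 library left out. Without phosphate it stood higher still, at 5.10, 3.70 and 3.17 CPM. The direct difference was called, with no nitrate below no phosphate (log2 -1.50, SE 0.371, edgeR adjusted p = 0.00982).

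LOC111902813 had the largest fitted fall under the same limits. It had 0.102, 0 and 0 CPM without nitrate, against 26.7, 31.2 and 7.79 CPM in full-medium columns 2, 3 and 4. It was at or next to 0 in every no-nitrate library, and column 4 was the lowest of the full-medium values. The no-nitrate libraries together held 2 counts, against 1283 counts in full medium, so full medium was 665-fold higher and the edgeR adjusted p was 0.00297 (log2 -9.11). The exact 95% counting interval of 184 to 5495 does not cover the spread among the full-medium libraries. The fitted log2 fold change was -9.49 to -8.58 without 1 of the other libraries, and -11.77 without no-nitrate library 1, which held both counts. Without phosphate it was also low, at 0.0459, 0.483 and 0.616 CPM, and the direct difference between the starvations was not called (adjusted p = 0.319).

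LOC111904853 was at 0 in all 3 no-nitrate libraries and held 146 counts in full medium, or 2.58, 3.66 and 1.25 CPM in columns 2, 3 and 4. Set against a floor of 3 counts over the group, or 0.0502 CPM, the pooled level without nitrate was at least 50.4-fold lower (edgeR adjusted p = 0.000195). The exact 95% counting interval, which also covers the error of the full-medium count, began lower, at 40.5-fold. It kept counts without phosphate, at 0.964, 1.66 and 1.41 CPM. The direct test of no nitrate against no phosphate called it (edgeR adjusted p = 0.000216).

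**Figure D4:**
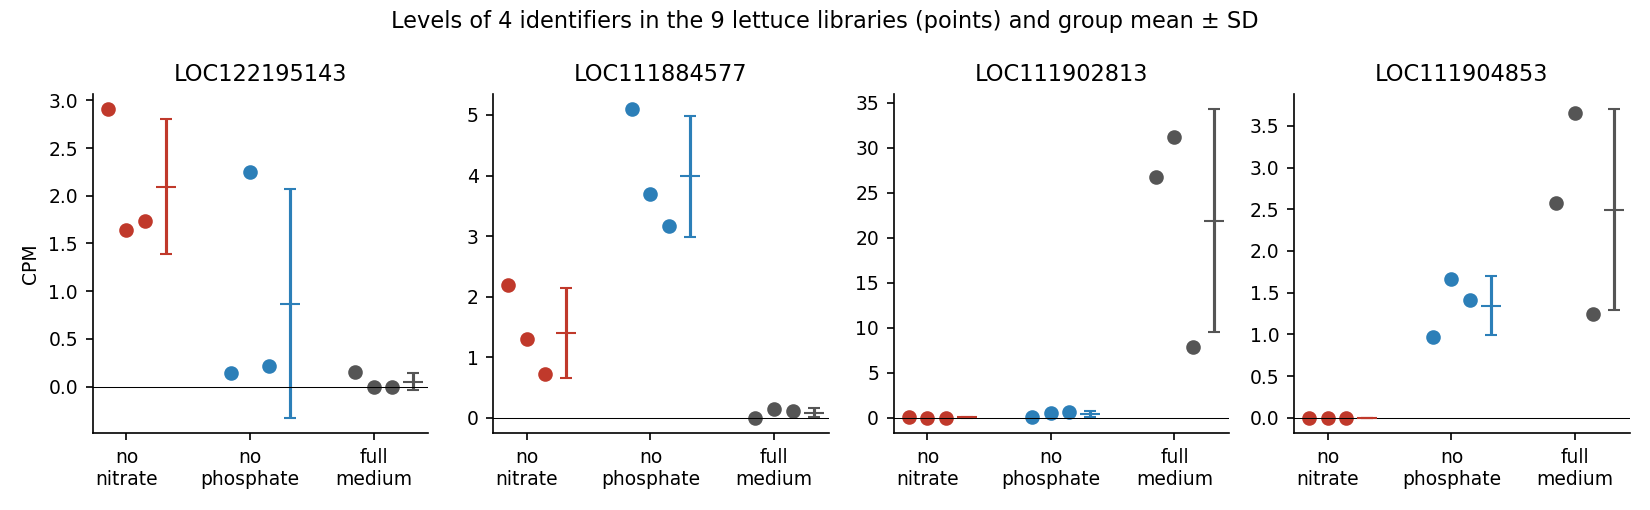
Levels in CPM (vertical axes) of 4 identifiers in 9 lettuce libraries by medium, with 1 point per library in column order and the group mean ± SD beside it (n = 3). They are the 2 largest rises and the 2 largest falls without nitrate among called, non-overlapping genes that averaged at least 1 CPM. LOC111904853 is at 0 in the 3 no-nitrate libraries and at 0.964 to 3.66 CPM in the other 6.

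Complete loss of a transcript was rare. Of all 48985 rows of the lettuce table, 885 were at 0 in the no-nitrate group and above 0 in full medium, but 871 of these had fewer than 10 counts over the 3 full-medium libraries and 4 had at least 30. In the other direction 1170 rows were at 0 in full medium and above 0 without nitrate, 1139 of them under 10 counts and 1 with at least 30. The low-count filter left 5 of the 885 and 6 of the 1170 to be tested. Of these, 3 that were at 0 without nitrate and 1 that was at 0 in full medium were called, beside 15.3% of all genes tested. Such rows were chosen for being at 0 in 1 of the groups compared and passed the filter through other libraries. The choice favours a call, so these counts do not show that such rows were called more often.

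Some well counted genes changed at least 4-fold. Called genes with at least 10 CPM in full medium and an at least 4-fold fall numbered 17, and called genes with at least 10 CPM without nitrate and an at least 4-fold rise numbered 15. Of the 17, 5 were under 1 CPM without nitrate, while 0 of the 15 rises were under 1 CPM in full medium. Without full-medium column 4 these sets held 23 falls and 31 rises, and without column 3 they held 14 and 9. The limits of 10 CPM and 4-fold were chosen after the values were seen, each set was picked in the medium where it is high, and neither count shows that falls or rises went further.

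The gene with the most counts among the 17 was at 334, 350.2 and 350.1 CPM without nitrate, against 1508, 1499 and 1192 CPM in full-medium columns 2, 3 and 4. Its levels without phosphate were 1675, 1906 and 1915 CPM, above every full-medium library. It was thus lowest without nitrate by a wide margin (log2 -2.02, SE 0.0974, edgeR adjusted p = 5.47e-08), and its difference from no phosphate was log2 -2.41 (SE 0.0987, adjusted p = 1.24e-09).

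The fall with the smallest adjusted p of the 17 was in a gene at 17.4, 17.9 and 18.8 CPM without nitrate, against 153, 142 and 141 CPM in full medium. The spread within either group was small beside the difference (log2 -3.02, SE 0.0803, edgeR adjusted p = 1.34e-10), and column 4 stood with its partners here. Without phosphate the same gene was between the other media, at 79.3, 88.3 and 86.5 CPM. A further gene was close to silent without nitrate, at 0.051, 0.145 and 0.103 CPM, against 36.1, 20.6 and 38.9 CPM in full medium (log2 -8.22, SE 0.435, edgeR adjusted p = 1.2e-05). Column 4 was the highest of the 3 full-medium values for that gene. Another was at 0, 0.0965 and 0.154 CPM without nitrate, against 24.6, 22.4 and 13.6 CPM in full medium (edgeR adjusted p = 0.000112), and kept 9.41, 14.2 and 17.6 CPM without phosphate.

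Of the 17 falls, 12 were also lower without nitrate than without phosphate, 0 were higher and 5 were not called in that direct test. It called 27% of all genes tested, 13.8% higher and 13.3% lower. The 17 were picked for a large fall in the same no-nitrate libraries, which favours the first count. The group means of the 17 had a median of 7.95 CPM without nitrate, 18.1 CPM without phosphate and 42.8 CPM in full medium. Column 4 was the full-medium library nearest to the no-nitrate mean for 11 of the 17 falls and for 12 of the 15 rises. These counts include near ties, such as a rise at 2.32, 2.31 and 2.34 CPM in columns 2, 3 and 4. The share over all genes tested is not given, so they are a description.

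The gene with the most counts among the 15 rises was at 661, 657 and 360.3 CPM without nitrate, against 99.0, 101 and 189.7 CPM in full-medium columns 2, 3 and 4. No-nitrate library 3 was the lowest of its group and column 4 the highest of its group (log2 2.11, SE 0.406, edgeR adjusted p = 0.0185). It was at 1377, 1059 and 742 CPM without phosphate. Another of the 15 rises was in a gene at 24.2, 22.7 and 22.5 CPM without nitrate. In full medium it was at 2.84, 0.752 and 6.21 CPM (log2 2.84, SE 0.522, edgeR adjusted p = 0.0134). That gene stood at 0.827, 0.751 and 1.06 CPM without phosphate, so it was high in the no-nitrate libraries and low in the other 6. One more, at 9.95, 10.7 and 16.3 CPM without nitrate, against 0.825, 0.852 and 2.29 CPM in full medium, was at 0.643, 0.644 and 0.396 CPM without phosphate (no nitrate against no phosphate, log2 4.45, SE 0.389, edgeR adjusted p = 1.37e-05). Of the 15 rises, 7 were higher without nitrate than without phosphate, 0 were lower and 8 were not called. Over all genes tested, 13.8% were higher and 13.3% lower in that direct test. The 15 were picked for high values in the same no-nitrate libraries, which favours the first count. Among all 524 rises of at least 2-fold, 73 were higher and 92 lower.

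**Figure D5:**
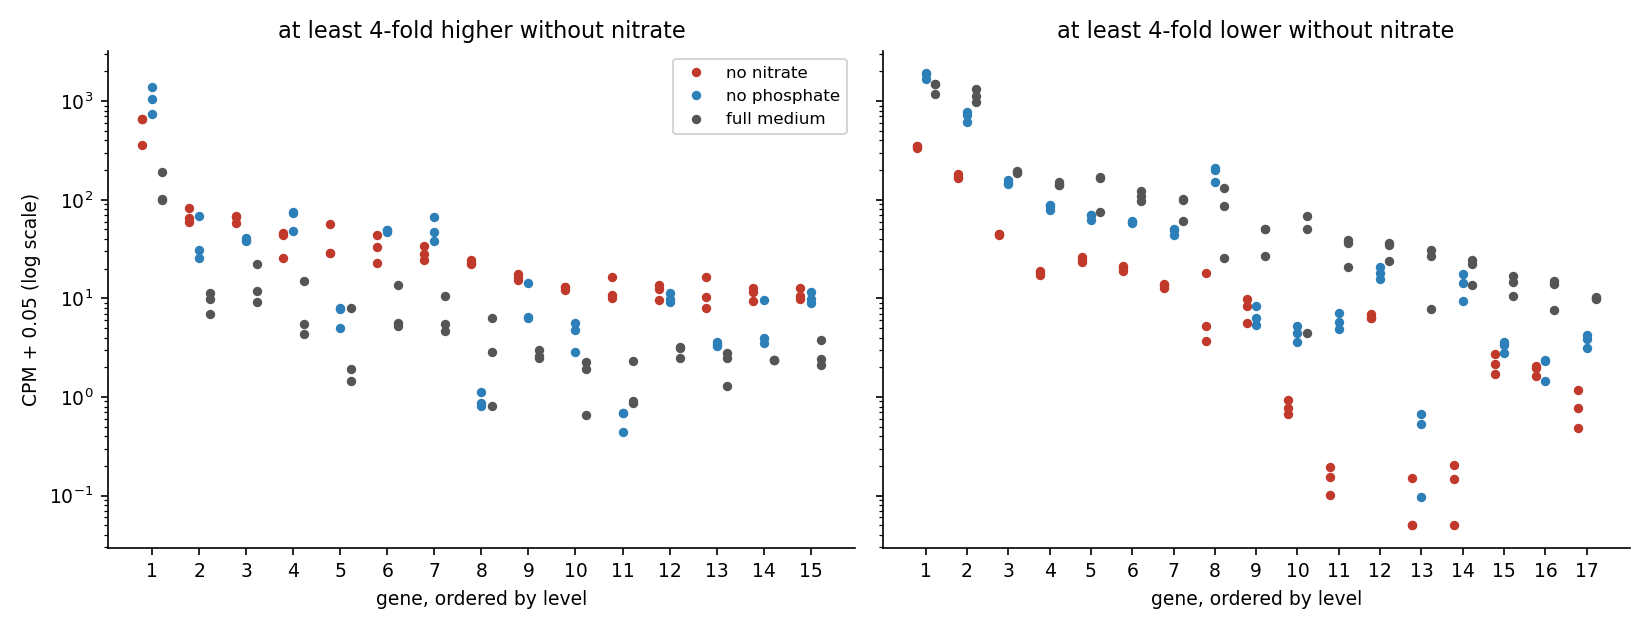
Levels (vertical axis, CPM + 0.05, log scale) in each of 9 lettuce libraries of the 15 called genes with an at least 4-fold rise and at least 10 CPM without nitrate (left) and of the 17 with an at least 4-fold fall and at least 10 CPM in full medium (right), ordered by that level along the horizontal axis and coloured by medium. The choice of called genes all but fixes the gap between no-nitrate and full-medium points, while no-phosphate points lie above, between or below them.

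The direct test sets no nitrate against no phosphate. The full-medium libraries enter it only through the low-count filter, the normalization and the shared estimate of the spread, while the no-nitrate libraries enter both tests and the genes below were chosen with them. It called 6320 genes, 27% of those tested, with 3223 higher (13.8%) and 3097 lower (13.3%) without nitrate. Fitted on these 2 groups alone it called 8017 of 23034 genes, and without no-nitrate library 2 it called 4134. Of the 1612 genes that rose relative to full medium, 202 were higher and 387 lower without nitrate than without phosphate, and 1023 were not called. Of the 1954 that fell, 1086 were higher without nitrate than without phosphate, 156 were lower and 712 were not called. For a majority of the falls, 55.6%, the level without nitrate was therefore above that without phosphate, against 13.8% of all genes tested.

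The order differed among the larger falls. Of the 124 genes that fell at least 2-fold, 39 were lower without nitrate than without phosphate, or 31.5%, against 13.3% of all genes tested. A further 12 were higher, or 9.68%, against 13.8% of all genes tested, while 73 were not called. The 124 were chosen for low values in the same no-nitrate libraries, which favours the first of these counts, so the change of order is a description. Of the 524 genes that rose at least 2-fold, 73 were higher (13.9%) and 92 lower (17.6%) without nitrate than without phosphate, and 359 were not called. The comparisons of either starvation with full medium share the full-medium libraries, so the following medians are given side by side only. Over the 124 large falls the median log2 fold change against full medium was -1.41 without nitrate and -1.13 without phosphate. Over the 524 large rises it was 1.45 and 1.54. Over all 1954 falls it was -0.45 without nitrate and -0.82 without phosphate.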

How the data were processed

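The deposited lettuce table held whole-number read counts per gene with no normalization, per the file headers and values. Poly(A)-selected directional libraries were made per the labels' protocols. STAR 2.7 and DESeq2 are named in the submitters' processing notes without their role; the counting program, its strand and multi-mapping rules and the genome build are not given in the sources used here, so counts of overlapping genes and close paralogs are uncertain. Library totals ran from 18857111 to 22642271. Of 48985 rows, 18837 were at 0 in all 9 libraries.

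All 9 lettuce libraries were fitted together (edgeR 4.0.16, R 4.3.3): filterByExpr left 23366 genes, TMM factors were 0.966 to 1.03, and contrasts used the quasi-likelihood F-test (robust setting, two-sided) with Benjamini-Hochberg adjustment (called under 0.05). The common biological coefficient of variation was 0.123. SE follows from the log2 fold change and F. Column numbers 2 to 4 of full medium differ from the titles' numbers and name columns only. Scripts were tested on simulated counts.

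Identifiers are printed for the pair with the largest rise and the pair with the largest fall, taken from called genes that averaged at least 1 CPM over the 9 libraries and did not overlap between the groups. Planned gene lists, markers and gene order could not be applied, since the table gives identifiers only. The comparison, lists and tests were chosen with earlier results of these data known. Alternatives were RLE normalization, 2 other filters, only the groups compared, DESeq2 1.42.0, a replicate block and leaving out libraries.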

Additional observations from a re-analysis of the deposited data

How the results depend on the processing

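Leaving out 1 library at a time gave 1898 to 4905 calls against full medium, with 1027 to 2723 higher and 842 to 2182 lower, and 459 to 978 calls of at least 2-fold, with 365 to 805 higher and 88 to 173 lower; calls against no phosphate ran from 4134 to 5690. With no-nitrate library 3 and full-medium column 4 both left out, a choice made after seeing the data, 2424 genes were higher, and 1052 changed at least 2-fold, 828 higher and 224 lower. With only the groups compared in the fit, 2544 genes were called, 1335 higher and 1209 lower, and 2505 of them were among the 3566. The median SD of log2 CPM within a group was 0.171 in full medium, 0.132 without nitrate and 0.123 without phosphate. The median log2 fold change over tested genes, -0.026, was -0.013 with RLE normalization, 0 with the filter at 1 count, 0.002 with only the groups compared, -0.013 with DESeq2, -0.017 with the replicate block and -0.034 to 0.007 with 1 library left out; the cause was not tested. The replicate block used the column numbers, of which no nitrate and full medium share 2 and 3 only. Deviations from the group means correlated at 0.04 and 0.19 for these numbers between no nitrate and full medium. Between no nitrate and no phosphate they correlated at 0.03, 0.05 and 0.06 for numbers 1, 2 and 3. Whether a shared number marks a shared batch is not given in the labels and was not tested. With the block 3915 genes were called, 2704 of them among the 3566. DESeq2 called 3694 genes, 3368 of them shared. LOC122195143 was also not called with the filter at 1 count (adjusted p = 0.0665, edgeR) or with the replicate block (adjusted p = 0.0638); the other 3 identifiers were called under every alternative. Genes under 1 CPM rest on few counts in each library, which limits what could be called there.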
